A study of Mus musculus with 2 samples.

Results

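The miR-15/16 family was examined in tissue of mouse embryos that is labelled neural tube. The family was taken as 7 of the 1973 miRNA genes in the deposited tables: Mir15a, Mir15b, Mir16-1, Mir16-2, Mir322, Mir503 and Mir497. They were chosen by name and not by their values, although earlier results of these data were known. A gene was read from the strand it is annotated on. Mir497 was not analysed as a gene of its own. Its reads were taken from the opposite strand of Mir497b, a miRNA gene annotated antisense to it whose span contains the whole of Mir497. The samples form 1 group of 2 biological replicates from embryos labelled healthy, of strain B6NCrl, collected at 15.5 days of development with males and females pooled. Library 1 was made from 78 embryos and library 2 from 62, so each value is a mean over a pool and the spread between embryos was not measured. No treatment, mutant or second stage was compared, and the data answer which family members the tissue held, in which proportions, and how far the pools differed.

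MiRNAs are short RNAs that guide Argonaute proteins to messenger RNAs, mostly by pairing through the seed, bases 2 to 8 from the 5′ end. The miR-15/16 family is known for restraining the cell cycle by repressing cyclins D and E, Cdk6, Chek1 and Wee1, and for repressing the survival gene Bcl2. Its members are made from several polycistronic transcripts, in which neighbouring hairpins are cut from 1 primary RNA. Mir15a and Mir16-1 share the non-coding gene Dleu2, whose human counterpart is deleted in chronic lymphocytic leukaemia. Mir15b and Mir16-2 share an intron of Smc4, which encodes a condensin subunit needed to compact mitotic chromosomes. Mir322, the mouse counterpart of human MIR424, and Mir503 open an X-linked cluster that is induced during differentiation and is known for lowering Cdc25a. Mir497 lies beside Mir195a, another family gene.

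The mature sequences show why these genes are grouped, and where Mir503 departs. Each is the 5p strand, from RefSeq on build GRCm38.p6 (the assembly of mm10), written 5′ to 3′ with the seed in capitals.
miR-15a-5p: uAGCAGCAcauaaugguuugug
miR-15b-5p: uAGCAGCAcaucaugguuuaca
miR-16-5p: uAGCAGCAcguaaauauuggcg
miR-322-5p: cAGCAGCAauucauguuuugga
miR-497a-5p: cAGCAGCAcacugugguuugua
miR-503-5p: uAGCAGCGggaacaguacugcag

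Mature sequences were found for 7 of 7 genes, and 6 of the genes carry the seed AGCAGCA. The seed of miR-503-5p differs from it by A8G, counted from the 5′ end with the base of miR-15a-5p first. Over the 22 positions compared with miR-15a-5p, miR-15b-5p was identical at 18, miR-497a-5p at 17, miR-16-5p at 16, miR-322-5p at 15 and miR-503-5p at 11. The run of identical bases that starts at base 2 ended at base 11 in miR-15b-5p, at base 10 in miR-497a-5p, at base 9 in miR-16-5p, at base 8 in miR-322-5p and at base 7 in miR-503-5p. The members therefore share their seeds more than their 3′ parts.

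Mir16-1 and Mir16-2 give the same mature 5p sequence, which bears on how their reads could be counted. Their hairpins are shown with the longest shared stretch in capitals.
Mir16-1: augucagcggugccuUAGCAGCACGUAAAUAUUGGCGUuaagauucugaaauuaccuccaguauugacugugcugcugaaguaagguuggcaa
Mir16-2: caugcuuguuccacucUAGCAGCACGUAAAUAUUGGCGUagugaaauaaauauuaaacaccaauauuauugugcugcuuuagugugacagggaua

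The stretch covers the 22 bases of miR-16-5p and 1 base after it, so that a read starting at the mature 5′ end matches both copies until it is 24 bases long. The 3p strands differ between the copies. Reads aligned to several places, 29.4% among 7925935 reads in library 1 and 29.7% among 11738914 in library 2, were counted in no gene. The counts of Mir16-1 and Mir16-2 may therefore be too low, and how many reads of miR-16-5p were left out was not tested. Neither of the mature sequences of the other 5 members occurs in a second hairpin of the RefSeq table. Of the 916 table genes with a mature sequence there, 84 (9.17%) have one that occurs in more than 1 hairpin.

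On build mm10, Mir15a lies at chr14:61632027-61632110 and Mir16-1 at chr14:61631880-61631972, both on the minus strand and 54 bases apart. Mir15a falls in an intron of Dleu2, and Mir16-1 overlaps an exon of at least 1 annotated Dleu2 transcript. Mir15b (chr3:69009772-69009835) and Mir16-2 (chr3:69009902-69009996) lie on the plus strand in an intron of Smc4, 66 bases apart. The identifier of Mir15b carries an older version number in the tables than in the annotation used for positions, so the span counted may differ. Mir322 (chrX:53054255-53054349) and Mir503 (chrX:53053984-53054054) lie 200 bases apart on the minus strand, in no other annotated gene. Mir497b lies at chr11:70234692-70234816 on the minus strand.

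The family as a whole took just under a hundredth of the reads assigned to miRNA genes. Levels are given in CPM, the counts of a gene in each 1000000 sense-strand counts of miRNA genes, which came to 4228685 for library 1 and 6039889 for library 2. The 7 members summed to 39808 counts in library 1 and 50921 in library 2, or 0.941% (95% Wilson interval 0.932 to 0.951) and 0.843% (0.836 to 0.850) relative to these totals. The Mir497 reads, 827 and 1248 of the summed counts, lie on the opposite strand and are not part of the totals. The mean of the family was 8922 ± 695 CPM (SD, n = 2), which may be too low because the Mir16 counts leave out multimapping reads. All 7 members had at least 10 counts in each library. As this is bulk tissue, fewer expressing cells and less RNA per cell cannot be told apart. Intervals cover the counting error of reads only, not variation between pools. PCR-amplified reads without molecular identifiers are not independent molecules, so the intervals may be too narrow even for counting error.

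Mir322 held most of the family's counts, and the counted level fell stepwise over the other members. Mir322 reached 5349 CPM in library 1 and 4868 in library 2, a mean of 5109 ± 340 CPM (n = 2). It ranked 29 among the 1973 genes and made up 56.8% and 57.7% of the family's counts. Mir15a, the first hairpin of the Dleu2 pair, had 1933 and 1772 CPM (mean 1852 ± 114, rank 66). It made up 20.5% and 21.0% of the family in the 2 libraries. Mir16-1, its partner, had 1168 and 961 CPM (mean 1065 ± 147, rank 81). The Mir16 counts leave out multimapping reads, so the level and rank of Mir16-1 may be too low. The shares of Mir322 and Mir15a may then be too high.

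The members from Smc4 were lower. Mir15b reached 432 CPM in library 1 and 338 in library 2 (mean 385 ± 66.6, rank 121), and Mir16-2 had 219 and 186 CPM (mean 203 ± 23.0, rank 153). Mir497 had 196 and 207 CPM (mean 201 ± 7.82, rank 155), from 827 and 1248 reads on the strand opposite to Mir497b. On its own strand Mir497b had 2 counts in library 1 and 0 in library 2, where a count of 0 allows up to 0.497 CPM. Mir503, which shares the X-linked transcript with Mir322, was the lowest member with 117 and 99.0 CPM (mean 108 ± 12.9, rank 193). In mean CPM as counted, the highest member thus stood 47.2-fold above the lowest, with the Mir16 genes counted without multimapping reads.

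In counted reads, the order Mir322, Mir15a, Mir16-1, Mir15b held in both libraries, and the values of neighbours in it did not overlap. The places of Mir16-1 and Mir16-2 rest on counts without multimapping reads and may be too low. Mir16-2 and Mir497 were not separated: Mir16-2 was 1.12-fold higher in library 1 and Mir497 was higher in library 2. Both stood above Mir503 in each library. A miRNA read spans most of the mature molecule, here 22 or 23 bases for the 5p strands, so the CPM values were not divided by length. Counts are given per gene, so the 5p and 3p strands of a hairpin were not told apart.

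**Figure D1:**
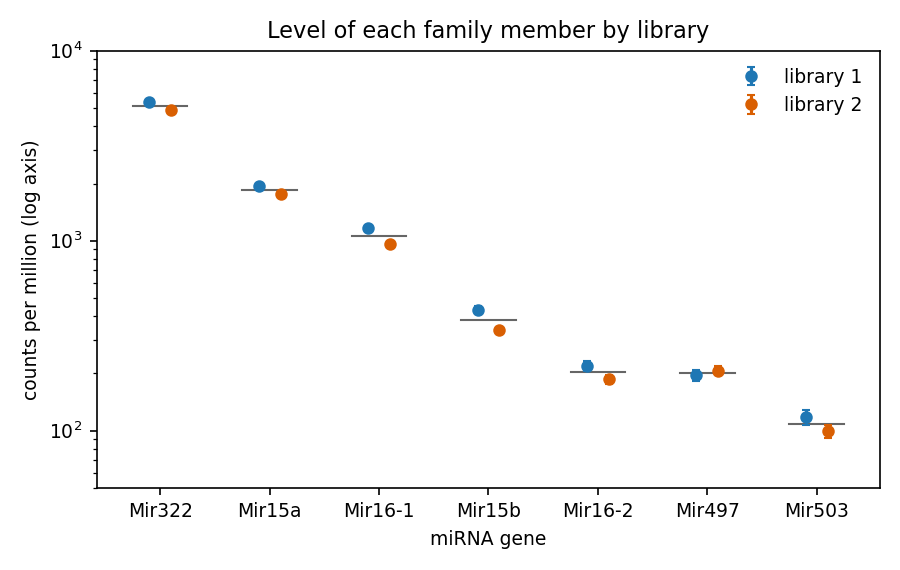
CPM of each family member (vertical log axis) in library 1 and library 2, with 95% Wilson counting intervals as error bars and a grey line at the mean of both. Mir322 lies near 5109 CPM and Mir503 near 108 CPM, and Mir16-2 and Mir497 lie at the same height.

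Neighbours on 1 transcript were counted at unequal levels, and the inequality was much larger on the X chromosome than at the other loci. At the Dleu2 locus the ratio of Mir15a to Mir16-1 counts was 1.65 in library 1 (95% exact counting interval 1.60 to 1.71) and 1.84 in library 2 (1.79 to 1.90). At the Smc4 locus the ratio of Mir15b to Mir16-2 was 1.97 (1.82 to 2.14) and 1.81 (1.68 to 1.95). These locus ratios rest on the Mir16 counts, which leave out multimapping reads. The ratio of Mir322 to Mir503 was 45.6 (41.7 to 49.9) in library 1 and 49.2 (45.3 to 53.4) in library 2. Between the libraries the interval of the Dleu2 ratio did not overlap, whereas those of the Smc4 and X-linked ratios did.

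Both genes of the Dleu2 locus exceeded their paralogs of the Smc4 locus. Mir15a exceeded Mir15b by 4.48-fold in library 1 (4.25 to 4.71) and 5.25-fold in library 2 (5.00 to 5.51). Mir16-1 exceeded Mir16-2 by 5.34-fold (4.98 to 5.74) and 5.16-fold (4.84 to 5.51), in counts that leave out reads matching both copies. In library 1 the intervals of the pairs did not overlap, and in library 2 they did. Taken as sums, the Dleu2 pair held 2917 ± 261 CPM and the Smc4 pair 587 ± 89.6 CPM (n = 2), a ratio of 4.77 in library 1 and 5.22 in library 2. The X-linked pair held 5217 ± 353 CPM, or 58.1% and 58.9% of the family's counts.

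Other genes with the family's seeds added little. Of the 12 analysed genes whose mature miRNA carries either seed, 7 are the members and 5 are not. Mir195a, the neighbour of Mir497 at a distance of 241 bases, was the 1 of these 5 that was detected, with 216 CPM in library 1 and 200 in library 2 (mean 208 ± 11.0, n = 2). Mir195b, Mir6342, Mir6353 and Mir6419 had 0 counts in both libraries, which leaves room for 0.709 CPM in library 1 and 0.497 in library 2. The 12 genes together reached 9130 ± 706 CPM, so that the members held nearly all counts of genes with these seeds. Mir497 and Mir195a were close to each other. The ratio of Mir497 to Mir195a was 0.906 in library 1 (0.823 to 0.996) and 1.03 in library 2 (0.952 to 1.12).

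Along the X-linked cluster, the level did not follow the order of the hairpins. After Mir322 and Mir503 come Mir351, Mir542, Mir450-2, Mir450-1 and Mir450b, all on the same strand within 6353 bases and with other seeds. Mir351, whose 5p strand carries the seed CCCUGAG of the miR-125 family, reached 1039 CPM in library 1 and 843 in library 2. It lies downstream of Mir503, yet exceeded it 8.86-fold in library 1 (8.07 to 9.74) and 8.52-fold in library 2 (7.82 to 9.28). Mir542 had 184 and 126 CPM, and Mir450b, the last hairpin, had 36.2 and 22.8 CPM. Mir450-1 had 30 and 7 counts and Mir450-2 had 7 and 9. Their 5p sequence, miR-450a-5p, is identical in both hairpins, so their reads were also liable to be left out as multimapping. The 5 cluster genes that are not members held 1131 ± 193 CPM in all (n = 2).

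**Figure D2:**
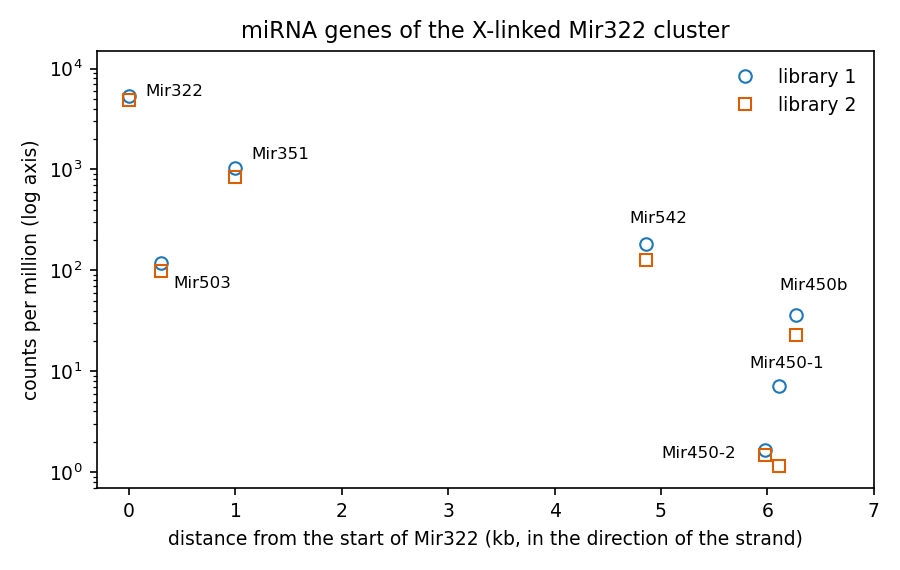
CPM (vertical log axis) of the 7 miRNA genes of the X-linked cluster in library 1 (circles) and library 2 (squares), against the distance in kilobases from the start of Mir322 in the direction of transcription. Mir322 is the highest and Mir503, the next hairpin, is lower than Mir351 behind it.

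The pools differed slightly in family level, with all but 1 member higher in library 1. A gene was tested when each library held 10 or more of its counts, which left 364 genes, each compared by an exact two-sided binomial test with Benjamini-Hochberg adjustment over all of them, after scaling by TMM (a trimmed-mean factor that corrects for composition). This test compares these libraries, not conditions, and takes in counting error alone. It called 49.2% of all tested genes, 25.5% as higher in library 1 and 23.6% as higher in library 2. Among the 197 tested genes of at least 100 CPM, where all 7 members lie, it called 69.5%. Of the 7 members, 6 were called, all 6 higher in library 1. On the log2 scale, the median ratio (library 1 over library 2) was 0.20 for the members and -0.0036 for all tested genes.

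Mir15b differed most, 1.25-fold higher in library 1 (95% interval 1.17 to 1.33, exact binomial test, adjusted p = 2.27e-11). Mir16-1 was 1.19-fold higher (1.14 to 1.23, adjusted p = 4.28e-18) and Mir16-2 was 1.15-fold higher (1.05 to 1.25, adjusted p = 0.00539). The 2 members with the most counts differed least among those called. Mir322 was 1.07-fold higher (1.05 to 1.09, adjusted p = 6.74e-15) and Mir15a was 1.07-fold higher (1.04 to 1.10, adjusted p = 4.29e-05). Mir503 was 1.16-fold higher (1.03 to 1.31, adjusted p = 0.0357). Its call was lost without the filter on low counts (adjusted p = 0.0657) and with TMM factors computed over all genes (0.0782), in a range of 0.0133 to 0.0782 over the scalings, filters and strand settings run with this test. With edgeR's exact test, Mir503 had an adjusted p of 1. Mir497 was the exception, at -0.11 on the log2 scale, and did not pass (adjusted p = 0.143, exact binomial test).

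**Figure D3:**
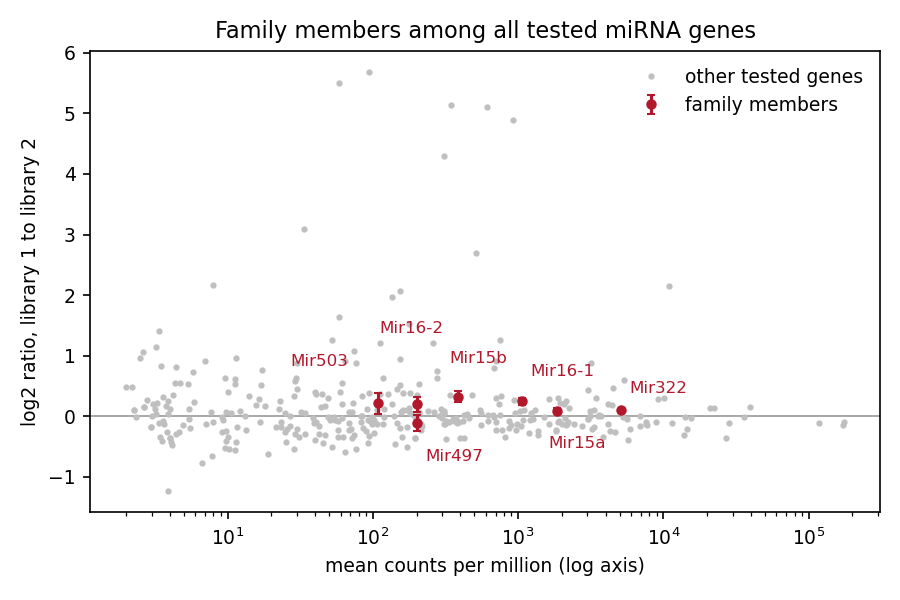
Log2 ratio of library 1 to library 2 after TMM scaling (vertical axis) against mean CPM (horizontal log axis) for the 364 tested genes. Family members are red with 95% exact counting intervals, other genes grey. The members lie between -0.11 and 0.32, within the central band of genes.

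The median size of these differences was near that over all tested genes, but above that over tested genes of at least 100 CPM. The median absolute log2 ratio was 0.20 over the members, 0.19 over all tested genes and 0.13 over the 197 tested genes of at least 100 CPM. All 7 members lay within 1.5-fold between the libraries, as did 86.8% of the tested genes. Of the tested genes, 32.1% had a larger log2 ratio in either direction than Mir15b, and 70.6% had a larger one than Mir322. With edgeR's exact test, which adds the 34.3% coefficient of variation estimated between the pools, 0 of the 7 members were called and 2.2% of all tested genes were. Without adjustment that exact test also gave 0 members under 0.05, the lowest exact p being 0.653. Because that variation was estimated from the same 2 libraries, with 1 library on each side, a difference typical of the pair cannot pass, and the 0 says nothing of whether the members differ. As a sum, the family was 1.09-fold higher in library 1 (1.08 to 1.11).

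The tested neighbours of the X-linked members were also higher in library 1. Mir351 was 1.20-fold higher in library 1 (1.16 to 1.25), Mir542 was 1.42-fold higher (1.29 to 1.58) and Mir450b was 1.55-fold higher (1.22 to 1.96). These were the 3 tested genes among the 5 other cluster genes. All 3 of 3 were called as higher in library 1 by the exact binomial test, against 25.5% of all tested genes. As hairpins of 1 cluster, they are not independent calls. Mir351 and Mir542 lie above 100 CPM, where the test called 69.5% of tested genes in either direction. With edgeR's exact test 0 of these 3 were called, each with an adjusted p of 1. Mir195a, beside Mir497, did not pass it (adjusted p = 0.360, exact binomial test) at 0.07 on the log2 scale.

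The tissue label and the makeup of the pools were checked on marker miRNA genes. Of 11 analysed neural markers, 7 were detected and 0 were at 0 counts, and together they reached 12621 CPM in library 1 and 13837 in library 2. Mir137 alone supplied most of this sum, with 6615 CPM in library 1 and 7220 in library 2. No copy of Mir124a was among the 364 tested genes. The neural sum therefore does not show that the neural markers were broadly high. Copies of Mir124a, Mir9 and Mir128 also share mature sequences, so the neural sum is liable to the same loss of multimapping reads as Mir16. Markers of other tissues were present as well. The 7 epithelial genes, all detected, summed to 5458 CPM in library 1 and 631 in library 2. The mesenchyme and smooth muscle genes, 5 of 6 detected, summed to 19436 and 4569 CPM. The endothelial Mir126a had 22011 and 19666 CPM, and the 3 leukocyte genes 433 and 237 CPM. Among the erythroid, liver and striated muscle lists the highest sum was 363 CPM, for striated muscle in library 2, with Mir133a-1 and Mir133a-2 at 0 counts. Reads matching both Mir133a copies would be counted in no gene, so these 0 counts do not show absence. The proliferation-linked Mir17 cluster of 6 genes summed to 17009 CPM in library 1 and 13251 in library 2. The part of these tissue differences in the higher family level of library 1 was not tested.

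Each member was set beside the genes nearest to it in counted level. Mir322 stood between Mir411 and Mirlet7d in mean CPM, and Mirlet7d was also the gene most like it over both libraries, at 5337 and 4831 CPM. Likeness was the distance in log2(CPM + 1) over the 2 libraries among genes of at least 100 CPM, which came to 0.012 for Mirlet7d. Mir15a stood between Mir196a-2 and Mir92b and was most like Mir296 (distance 0.13), and Mir16-1 stood between Mir467d and Mir323 and was most like Mir101b (0.086). Mir15b stood between Mir186 and Mirlet7c-1, and its nearest gene, Mir3071, was farther off than the nearest gene of any other member (0.25). Mir16-2 stood between Mir483 and Mir374b and was most like Mir195a (0.11). Mir497 stood between Mir374b and Mirlet7a-1 and was most like Mir700 (0.043). Mir503 stood between Mir148b and Mir135a-2, with Mir148b most like it (0.037). Mir196a-2, Mirlet7c-1, Mirlet7a-1 and Mir135a-2 are each 1 copy of a miRNA with further gene copies. Their counts may leave out multimapping reads, as those of Mir16-1 and Mir16-2 do. Closeness to such a gene is therefore not closeness to the level of its mature miRNA. With 2 libraries these distances describe level and a single difference only.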

How the data were processed

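MiRNA reads were measured in 2 libraries of 1 group. The authors' deposited tables give raw read counts per miRNA gene, made by the authors on build mm10 with annotation GENCODE M4, per the README deposited with each sample. Which aligner, counter and trimming were used is not given in the sources here. Counts are given without regard to strand and for each strand, and sense counts were used, with the opposite strand of Mir497b for Mir497. The 4 entries that name no gene held 46.6% and 48.5% of reads by the sense column and were left out. GENCODE M21 matched 1894 of 1973 identifiers.

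CPM used the sense total as library size. TMM factors and edgeR's exact test (edgeR 4.0.16, R 4.3.3) used genes with at least 10 counts in each library. The exact binomial test (scipy 1.17.1, Benjamini-Hochberg threshold 0.05) was run on simulated counts that held counting error alone, as the test assumes. That run checks the code and says nothing of how the test behaves with real variation between pools. DESeq2 1.42.0 size factors, library sizes alone, other filters, unstranded counts, other totals, TMM over all genes (added after seeing the data) and leaving out members or libraries were alternatives. Floors are 3 counts. The named genes were the members, genes with their seeds, the X-linked cluster and the nearest genes in level. Members and lists were chosen with earlier results of these data known. Binomial p-values cover counting error between these libraries only.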

Additional observations from a re-analysis of the deposited data

How the results depend on the processing

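The family level of 8922 CPM lay between 8431 and 9414 CPM when either library was left out. It was 4680 CPM with all reads of the table as library total, 7655 CPM without Mir16-1 and Mir16-2, and 3814 CPM without Mir322, alternatives that change the total or the members by construction. The log2 ratio of the family, 0.13, was 0.16 with library sizes alone, 0.16 without Mir322 and 0.094 with TMM factors over all genes, the last added after the data were seen. Of 7 members, 6 were called, 0 by edgeR's exact test, and 5 without a filter or with TMM over all genes, where Mir503 was lost. No member changed direction under the scalings, filters or strand settings run. No paired analysis was possible because there is only 1 group. Depth limits Mir503, with 496 and 598 counts, most.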
